A study of Homo sapiens with 6 samples.

Results

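Hypoxia response and glycolysis genes were followed in human umbilical vein endothelial cells (HUVECs), primary cells from the vein of the umbilical cord that are widely used to study vessel growth. The group was set by a list of 40 gene symbols, which were matched through Ensembl IDs to 40 of the 45372 genes in the deposited tables. The list holds HIF subunits, oxygen sensors, glucose and lactate transporters, the enzymes of glycolysis and further genes known to be induced by low oxygen. The 3 tested libraries came from HUVECs transfected with a synthetic miR-409-3p mimic, and the 3 libraries they were set against came from HUVECs transfected with a non-specific control RNA. In both groups the genotype label was WT, the cells had been passaged 3 times, the RNA was delivered with a lipid reagent at 50 nM, and the time label was 48 h. The titles of all 6 samples also call the cells non treated, and the labels used here name no hypoxic exposure. The labels call the samples biological replicates without saying whether they came from separate cultures or donors, so p-values measure the spread between these samples. The series title places miR-409-3p in vessel growth and wound repair of obese mice.

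HIF is a transcription factor made of an oxygen-regulated alpha subunit and a stable partner, ARNT. With oxygen present, prolyl hydroxylases of the EGLN family mark the alpha subunit and VHL directs its destruction, so this step acts on protein and is not read by mRNA levels. When oxygen is low, HIF binds short motifs near genes for glucose uptake, glycolysis, lactate export, mitophagy and matrix synthesis. Endothelial cells draw most of their energy from glycolysis even when oxygen is present, and PFKFB3, which makes an activator of phosphofructokinase, is known to set glycolytic flux in sprouting vessels.

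A microRNA pairs through its seed, bases 2 to 8, with sites in the 3′ UTRs of transcripts, usually lowering them. The mature miR-409-3p, encoded at chr14:101065346-101065367 on the plus strand (GRCh38.p14, RefSeq), is 22 bases long and is printed with its seed in capitals.
miR-409-3p: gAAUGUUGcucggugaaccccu
The search for sites covered 1 annotated 3′ UTR per tested gene, the longest (GENCODE 29, GRCh38). A 7mer-m8 site is CAACATT, an 8mer is CAACATTA, and a 7mer-A1 is AACATTA. The sites below belong to the 3 genes of the group with an unadjusted p under 0.05 (CITED2, EPAS1 and HK2) and to PGK1, which holds the remaining 8mer, with the matching bases in capitals.
CITED2 8mer, chr6:139371930-139371959, minus strand: gtttgcaatactCAACATTAtctttttcaa
CITED2 7mer-m8, chr6:139372413-139372441, minus strand: tgtttctgtcttCAACATTtttgacactg
EPAS1 8mer, chr2:46386604-46386633, plus strand: aattcctactgaCAACATTAtaactgtatg
HK2 7mer-m8, chr2:74892307-74892335, plus strand: aaacctcagggaCAACATTtttggtgtat
HK2 7mer-m8, chr2:74892455-74892483, plus strand: tttttttatacaCAACATTtatttcaaac
PGK1 8mer, chrX:78127969-78127998, plus strand: ctctacaattgcCAACATTAtctatccaac

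No gene of the group passed the test in either direction. Levels are given in TPM, a read count corrected for gene length and brought to one total per library. Differences are the mean log2(TPM + 1) of mimic libraries minus that of control libraries. Of the 40 genes, 38 reached 1 TPM or more in 3 or more of the 6 libraries and were tested, and EGLN3 and CA9 did not. At an adjusted p under 0.05 (limma, Benjamini-Hochberg over 13680 genes), 0 of the 38 were higher and 0 lower with the mimic, against 0.132% of all tested genes higher (18 genes) and 0.3% lower (41 genes). Under quantile scaling those numbers were 34 higher and 42 lower. With an unadjusted p under 0.05, 2 of the 38 were higher (5.26%, CITED2 and EPAS1), against 3.05% of all tested genes. At the same limit 1 was lower (2.63%, HK2), against 7.64% of all. For 5 genes, all 3 mimic libraries lay above all 3 control libraries (13.2%, CITED2, EPAS1, PFKM, P4HA2 and MXI1), against 5.16% of all tested genes. For HK2 alone, all 3 mimic libraries lay below all 3 control libraries (2.63%), against 10.5% of all.

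**Figure D1:**
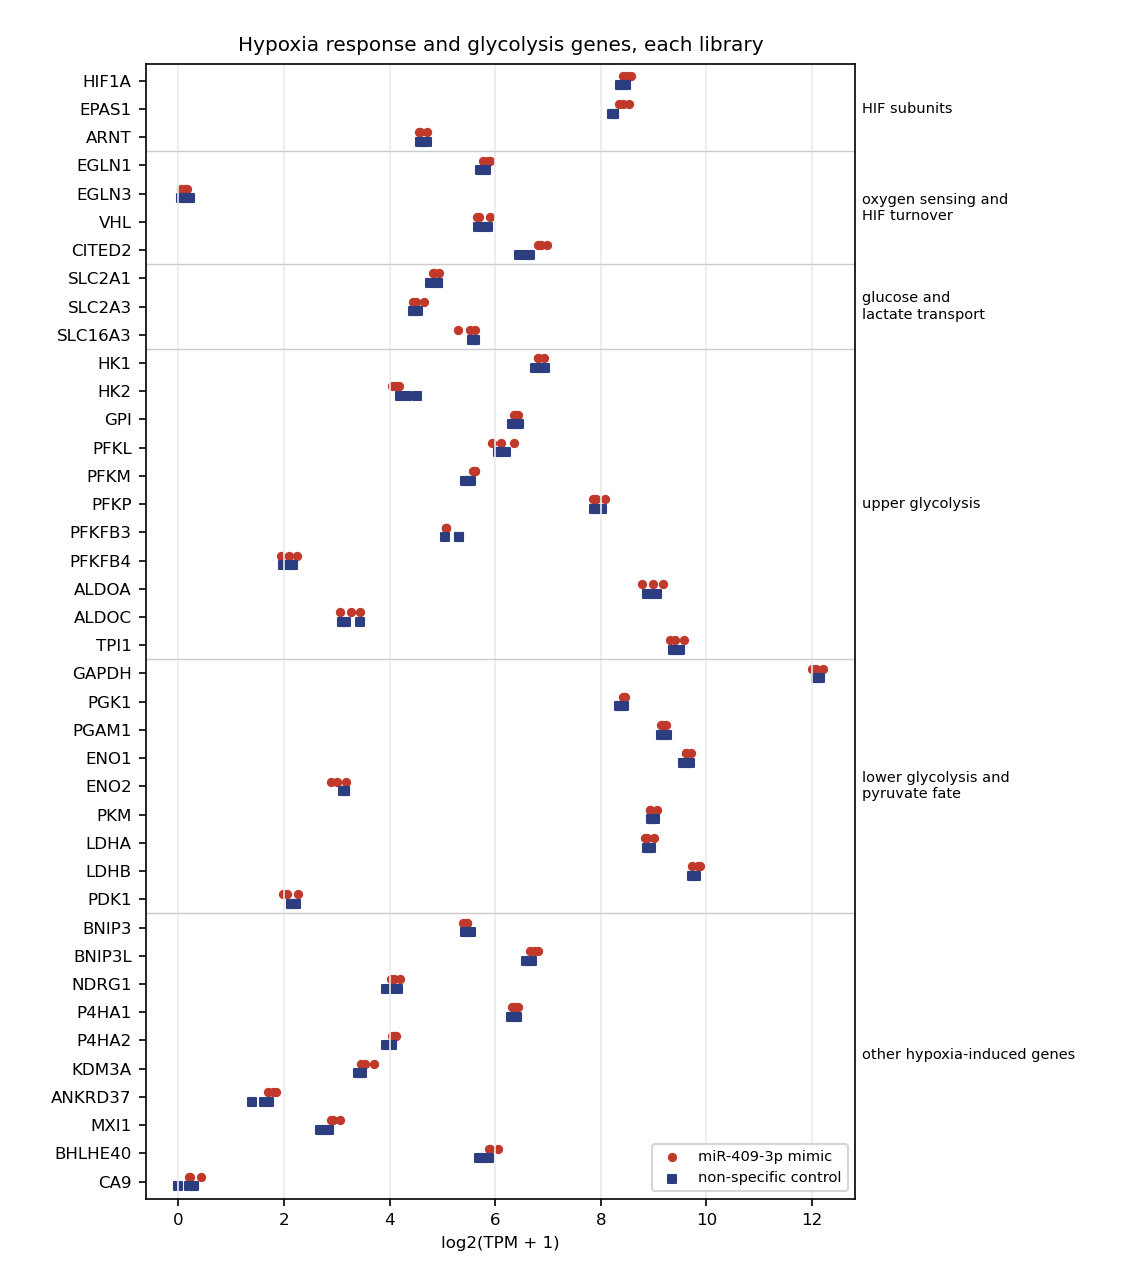
Each of the 40 genes in each library on a log2(TPM + 1) axis, with red circles for the 3 mimic libraries above blue squares for the 3 control libraries, grouped by role. Most genes have overlapping groups, EGLN3 and CA9 lie near 0, and GAPDH lies highest.

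The median log2 difference of the 38 tested genes was 0.0097, with 24 above 0 and 14 below. The median over all tested genes was -0.0166, with 56.6% of them below 0. The split of the 38 moved with the settings. It was 30 above and 8 below under median-of-ratios scaling, under the GC correction, without mimic 1 or without control 2. It was 18 above and 20 below without control 1 or without mimic 3. In those settings the median over all genes tested was 0.00343, 0.00467, -0.0128, -0.00471, -0.0363 and -0.0176, in the order named. Under quantile scaling that median was 0.00346, with 23 of the 38 above 0 and 15 below. How far the split followed the shift of all genes was not tested. Of the 38, 27 lay within 0.1 of 0 on the log2 scale (71.1%), as did 62.7% of all tested genes. The median standard error was 0.069 for the group and 0.083 for all tested genes. Differences ran from -0.23 for HK2 to 0.32 for CITED2.

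Estimated depth was 29.8 to 35.8 M assigned reads in mimic libraries and 32.2 to 34.8 M in control libraries. All 10 endothelial markers were measured, summing to 6211 to 6444 TPM in mimic libraries and 5950 to 6224 TPM in control libraries. The leukocyte markers PTPRC, CD3E and MS4A1 were listed at 0 in all 6 libraries, as were the hemoglobins. Summed smooth muscle and pericyte markers reached 510 to 551 TPM in mimic libraries and 501 to 526 TPM in control libraries, nearly all from RGS5 at a mean of 507 TPM. Summed epithelial markers reached 261 to 327 TPM in mimic libraries and 307 to 318 TPM in control libraries, mostly from KRT18. Fibroblast markers summed to 13 to 16.4 TPM in mimic libraries and 12.9 to 16.1 TPM in control libraries, and leukocyte markers to 16.8 to 19.1 TPM in mimic libraries and 16.9 to 19.8 TPM in control libraries. Blood and platelet markers summed to 0.203 to 0.559 TPM in mimic libraries and were listed at 0 in control libraries. No marker of any of these lists passed the limma adjusted p, and 1, an endothelial one, had an unadjusted p under 0.05. In such bulk RNA, fewer cells of a type and less RNA per cell cannot be told apart.

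Mimic libraries 2 and 3 stood apart from each other in a way that followed base composition. Across the 38 genes, the log2 level in mimic 3 minus that in mimic 2 correlated with the GC content of the longest coding transcript at a Spearman rho of 0.77, and across 11966 protein-coding genes at 0.67. These are correlations across genes of the same libraries, and genes are not independent replicates. No other pair of libraries was examined this way, so the trend is not shown to be particular to mimic 2 and mimic 3. Aldolase A (ALDOA), which splits fructose bisphosphate, has a GC content of 60.8% and read 504, 439 and 576 TPM in mimic libraries 1 to 3, against 503, 532 and 471 TPM in control libraries 1 to 3. Mimic 2 was thus its lowest library and mimic 3 its highest. The liver-type phosphofructokinase PFKL, at 63.5% GC, was 0.41 higher on the log2 scale in mimic 3 than in mimic 2, and HIF1A, at 36.4% GC, was 0.17 lower in mimic 3 (log2 difference of -0.17). Mimic 3 was the highest mimic library for 12 of the 20 glycolysis genes, and mimic 2 the lowest for 9. This order was not counted over all tested genes, so the counts are not a trait of the glycolysis genes. The difference between the groups did not follow GC content over all genes (Pearson r of 0.01), and in the 38 genes rho was -0.27.

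**Figure D2:**
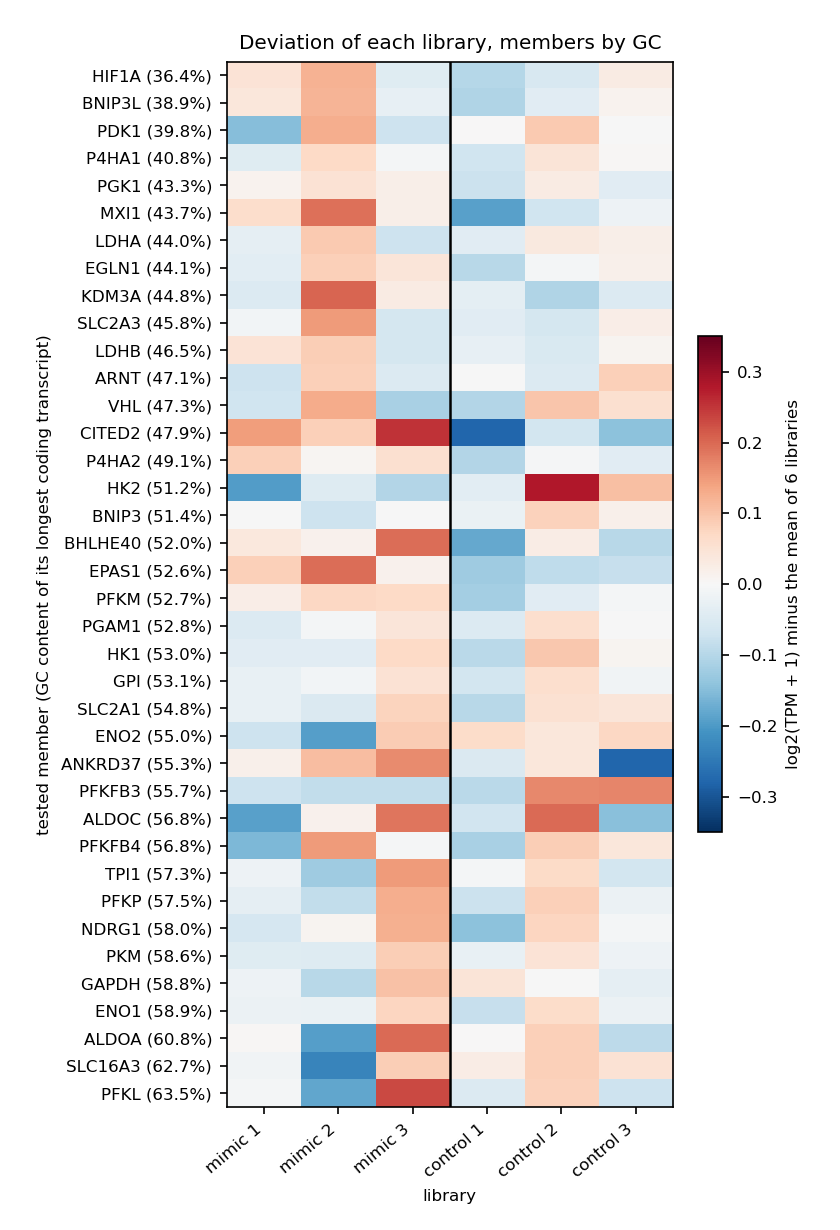
Heat map of the 38 tested genes, ordered down the page by the GC content of their longest coding transcript, with libraries across. Colour is log2(TPM + 1) minus the mean of the 6 libraries. Mimic 2 turns from red at the low-GC end to blue at the high-GC end, and mimic 3 runs the other way.

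HIF1A and EPAS1, the oxygen-regulated alpha subunits, were both abundant in HUVECs, and ARNT was far lower. EPAS1, also called HIF-2 alpha and known for its high expression in endothelium, read 341, 368 and 325 TPM in mimic libraries, against 295, 302 and 304 TPM in control libraries. All 3 mimic libraries lay above all 3 control libraries. The means were 345 ± 21.5 TPM with the mimic and 301 ± 4.66 TPM with the control (SD, n = 3 each), a log2 difference of 0.20 (SE 0.057, 95% interval 0.067 to 0.32). Its unadjusted p in limma was 0.0077 and its adjusted p 0.223, with 0.0611 to 0.526 over the alternatives. The 0.0611 came from the GC correction, which was added after the data had been seen. The lowest limma adjusted p of the other alternatives was 0.122, under median-of-ratios scaling.

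HIF1A read 362, 381 and 340 TPM in mimic libraries, against 327, 337 and 357 TPM in control libraries. The groups overlapped, since mimic 3 lay below control 3. The log2 difference was 0.086 (SE 0.06, limma adjusted p = 0.723), and it was 0.046 without mimic 2 and 0.13 without mimic 3. ARNT, the shared partner, read 22.5, 25.2 and 22.9 TPM in mimic libraries, against 23.7, 22.9 and 25.2 TPM in control libraries. Its groups spanned nearly the same range, with a log2 difference of -0.023 (95% interval -0.18 to 0.13, limma adjusted p = 0.971). As a share of the summed TPM of both alpha subunits, EPAS1 took 48.5%, 49.1% and 48.9% in mimic libraries, against 47.5%, 47.3% and 46% in control libraries. Its share was higher in every mimic library, and an exact two-sided permutation test of 3 against 3 libraries cannot give a p below 0.1.

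CITED2, which competes with HIF for the coactivators p300 and CBP and is itself induced by HIF, had the largest positive difference of the group. It is annotated at chr6:139371807-139374620 on the minus strand. It read 116, 111 and 125 TPM in mimic libraries, against 86.1, 100 and 94.7 TPM in control libraries. Every mimic library lay above every control library. The means were 117 ± 6.87 TPM with the mimic and 93.6 ± 7.04 TPM with the control (SD, n = 3 each), a ratio of 1.25 and a log2 difference of 0.32 (SE 0.07, 95% interval 0.16 to 0.48). Its unadjusted p in limma was 0.00149, rank 197 of 13680, and its adjusted p 0.103. With protein-coding genes alone tested, the limma adjusted p was 0.0409 at the same log2 difference of 0.32. With a GC correction added as well, the limma adjusted p was 0.0256 at 0.34, and both settings were added after the data had been seen. Over all 15 alternatives the difference ran from 0.27 to 0.37 and the adjusted p from 0.0256 to 0.309.

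Of the other genes of oxygen sensing and HIF turnover, EGLN1 and VHL differed less, and EGLN3 was too low to be tested. EGLN1, the main prolyl hydroxylase, averaged 56.4 ± 2.44 TPM with the mimic and 54.2 ± 2.26 TPM with the control (SD, n = 3 each). EGLN3, a hydroxylase that low oxygen induces strongly, read 0.0835, 0.122 and 0.036 TPM in mimic libraries, against 0.164, 0.1 and 0.0314 TPM in control libraries. These values stand for an estimated 5, 8 and 2 reads in mimic libraries and 10, 6 and 2 in control libraries, so a difference was not detectable at this depth. The annotated extent of EGLN3 also overlaps SPTSSA on the same strand, which averaged 102 TPM with the mimic and 98.5 TPM with the control. VHL averaged 53.1 ± 5 TPM with the mimic and 54.4 ± 3.99 TPM with the control (SD, n = 3 each), with overlapping groups.

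None of the 3 transporters passed the test. SLC2A1 (GLUT1), the widespread glucose transporter and a classic HIF target, read 27.6, 27.1 and 29.7 TPM in mimic libraries, against 26.2, 29.2 and 29 TPM in control libraries. Its groups overlapped, with a log2 difference of 0.0011 and a 95% interval of -0.15 to 0.16 (limma adjusted p = 0.999). SLC2A3 (GLUT3), a transporter of high glucose affinity, averaged 22.2 ± 1.77 TPM with the mimic and 21.3 ± 0.704 TPM with the control (SD, n = 3 each). SLC16A3 (MCT4), which exports lactate, read 44.9, 38.4 and 48.1 TPM in mimic libraries, against 46.1, 48 and 46.9 TPM in control libraries. Mimic 2 was its lowest library and mimic 3 its highest, in the order of the GC-rich genes above (62.7% GC), and the part of base composition in the difference was not tested. The log2 difference was -0.11 (SE 0.082, limma adjusted p = 0.77) and -0.016 without mimic 2. It was -0.08 after GC correction and -0.085 under median-of-ratios scaling, which does not use GC content. SLC16A3 overlaps CSNK1D on the opposite strand, which averaged 47.1 TPM with the mimic and 48.7 TPM with the control.

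Upper glycolysis, from hexokinase to triose phosphate isomerase, held 11 tested genes with a median log2 difference of 0.005, 7 above 0 and 4 below. HK2, the inducible hexokinase that performs the first step of glycolysis, read 15.4, 17.2 and 16.5 TPM in mimic libraries, against 17.3, 21.8 and 19.2 TPM in control libraries. All mimic libraries lay below all control libraries, although mimic 2 and control 1 nearly touched. The means were 16.4 ± 0.923 TPM with the mimic and 19.4 ± 2.24 TPM with the control (SD, n = 3 each), a ratio of 0.842 and a log2 difference of -0.23 (SE 0.09, 95% interval -0.44 to -0.025). Its unadjusted p in limma was 0.0318 and its adjusted p 0.392, with 0.156 to 0.829 over the alternatives. The 0.156 came from the GC correction, added after the data had been seen. The lowest limma adjusted p of the other alternatives was 0.243, without control 1. Without control 2 the difference was -0.15. HK2 (chr2:74833981-74893359, plus strand) overlaps AC019069.1 on the opposite strand, which averaged 8 TPM with the mimic and 9.8 TPM with the control, and whether counting used strand is not given in the sources used here. HK1, the constitutive hexokinase, was several times more abundant, at 114 ± 5.42 TPM with the mimic and 115 ± 7.4 TPM with the control (SD, n = 3 each). HK2 thus made up 12.2%, 13.4% and 12.1% of hexokinase TPM in mimic libraries, against 13.9%, 15.1% and 14.3% in control libraries. The 3 mimic shares lay below the 3 control shares.

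PFKFB3 read 32.7, 32.4 and 32.4 TPM in mimic libraries, against 32.2, 38.8 and 38.9 TPM in control libraries. Control 1 lay below all 3 mimic libraries and the other control libraries above them, so the groups overlapped. The log2 difference was -0.16 (SE 0.079, 95% interval -0.34 to 0.018), with an unadjusted limma p of 0.0715 and an adjusted p of 0.525. Without control 1 it was -0.25 (limma adjusted p = 0.184). Its relative PFKFB4 was low, averaging 3.26 ± 0.452 TPM with the mimic and 3.28 ± 0.3 TPM with the control (SD, n = 3 each).

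The 3 phosphofructokinases catalyse the committed step. PFKP, the platelet type, dominated at 246 ± 19.1 TPM with the mimic and 245 ± 13.6 TPM with the control (SD, n = 3 each). PFKL averaged 69.6 ± 10.2 TPM with the mimic and 67.9 ± 3.95 TPM with the control (SD, n = 3 each). PFKM, the muscle type, singled out here after its values were seen, read 46.6, 48.2 and 48.1 TPM in mimic libraries, against 42.1, 44.5 and 45.6 TPM in control libraries. Its mimic libraries lay above all control libraries by a small margin, with a log2 difference of 0.11 (SE 0.055, limma adjusted p = 0.54). PFKM overlaps SENP1 on the opposite strand, which averaged 16.4 TPM with the mimic and 17.5 TPM with the control. Of the other enzymes, GPI, ALDOC and TPI1 had log2 differences of 0.01, 0.009 and 0.0027.

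Lower glycolysis and the fate of pyruvate held 9 tested genes, with differences from -0.12 to 0.057 and a median of -0.0068. GAPDH, which oxidises glyceraldehyde phosphate, was the most abundant gene of the group, at 4391 ± 307 TPM with the mimic and 4411 ± 121 TPM with the control (SD, n = 3 each). On the opposite strand it overlaps AC006064.4, which averaged 82.9 TPM with the mimic and 81.9 TPM with the control. PGK1, the first enzyme of the pathway to yield ATP, averaged 346 ± 4.9 TPM with the mimic and 333 ± 12.3 TPM with the control (SD, n = 3 each). Its log2 difference was 0.057 (95% interval -0.055 to 0.17). The pyruvate kinase PKM averaged 505 TPM in both groups, with SDs of 26.5 with the mimic and 14.1 with the control.

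LDHA, the lactate dehydrogenase subunit that HIF induces, read 470, 512 and 457 TPM in mimic libraries, against 468, 492 and 488 TPM in control libraries. The control libraries lay within the range of the mimic libraries. The log2 difference was -0.0097 with a 95% interval of -0.14 to 0.12 (limma adjusted p = 0.985). LDHB, the other main subunit, was the more abundant at 899 ± 47 TPM with the mimic and 868 ± 18.3 TPM with the control (SD, n = 3 each).

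ENO2, the neuronal enolase, was minor beside ENO1 and read 7.06, 6.41 and 8.01 TPM in mimic libraries, against 7.86, 7.71 and 7.9 TPM in control libraries. Mimic 2 was lowest and mimic 3 highest, with the controls between mimic 1 and mimic 3, and the log2 difference was -0.12 (SE 0.092, limma adjusted p = 0.776). It was -0.05 without mimic 2 and -0.19 without mimic 3. PDK1, the kinase that shuts pyruvate out of the mitochondrial acetyl-CoA route under hypoxia, was among the lowest tested genes. It read 2.96, 3.8 and 3.18 TPM in mimic libraries, against 3.4, 3.68 and 3.39 TPM in control libraries. Mimic 2 was above all control libraries and the other mimic libraries below them, with a log2 difference of -0.062 (SE 0.11, limma adjusted p = 0.942), which was -0.0035 without mimic 1 and -0.14 without mimic 2. PDK1 overlaps AC078883.1 on the opposite strand, which averaged 4.48 TPM with the mimic and 4.83 TPM with the control.

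Summed over the 20 glycolysis genes, these transcripts took 0.97%, 0.943% and 1.03% of TPM in mimic libraries, against 0.979%, 0.996% and 0.962% in control libraries. The control libraries lay between mimic 2 and mimic 3, and 16 of the 20 genes were within 0.1 of 0 on the log2 scale.

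**Figure D3:**
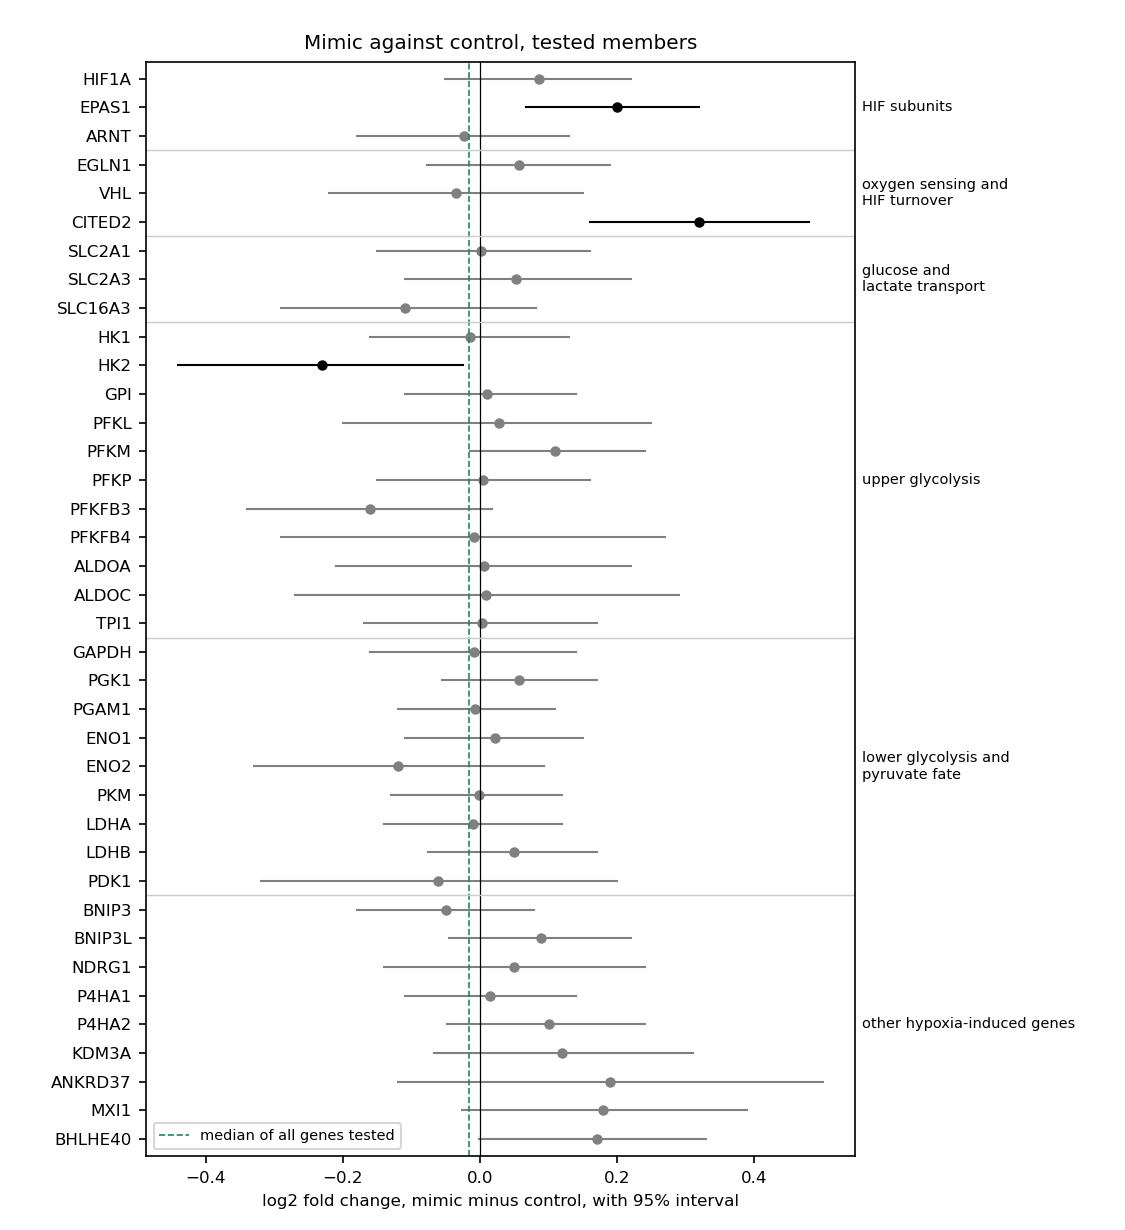
Log2 differences, mimic minus control, of the 38 tested genes with 95% intervals from limma, grouped by role. Black marks the 3 genes with an unadjusted p under 0.05, and the dashed green line is the median of all tested genes at -0.0166. Intervals of CITED2 and EPAS1 lie above 0, that of HK2 below, and the other 35 cross 0.

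The other hypoxia-induced genes had 8 of 9 tested members above 0 and a median log2 difference of 0.10, while no member passed the test and 56.6% of all tested genes lay below 0. Of 29 further HIF targets tested in a second list, 19 lay below 0. The 8 stayed above 0 under both other scalings, though NDRG1 and P4HA1 changed sign when single libraries were left out. By library, the median of their log2 deviations from the mean of 6 libraries was 0.017, 0.071 and 0.026 in mimic libraries, against -0.10, 0.025 and -0.017 in control libraries. Control 1 was lowest and control 2 lay between mimic libraries 1 and 3, so the groups overlapped.

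BHLHE40 (DEC1), a transcriptional repressor induced by HIF, read 58.6, 57.8 and 65.6 TPM in mimic libraries, against 50.4, 58.2 and 53.4 TPM in control libraries. Control 2 lay between mimic 2 and mimic 1, and the other control libraries below all mimic libraries. The log2 difference was 0.17 (SE 0.074, 95% interval -0.0016 to 0.33), with an unadjusted limma p of 0.0518 and an adjusted p of 0.469. Without mimic 3 it was 0.11.

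MXI1, an antagonist of MYC that HIF induces, read 6.6, 7.33 and 6.39 TPM in mimic libraries, against 5.39, 5.94 and 6.2 TPM in control libraries. The lowest mimic library lay just above the highest control library, with a log2 difference of 0.18 (SE 0.092, limma adjusted p = 0.546). ANKRD37, a small ankyrin-repeat protein induced by HIF1A, read 2.24, 2.45 and 2.59 TPM in mimic libraries, against 2.09, 2.29 and 1.64 TPM in control libraries. Control 3 was low and control 2 lay among the mimic libraries, with a log2 difference of 0.19 and a wide 95% interval of -0.12 to 0.50 (limma adjusted p = 0.729). Without control 3 the difference was 0.10. An estimated 36.6 to 56.1 reads per library stood behind it, and it overlaps UFSP2 on the opposite strand, at 41.2 TPM with the mimic and 41 TPM with the control.

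The collagen prolyl hydroxylase subunits P4HA1 and P4HA2 averaged 81.9 ± 3.38 and 16 ± 0.458 TPM with the mimic, against 81.1 ± 3.32 and 14.9 ± 0.558 TPM with the control (SD, n = 3 each). For P4HA2, singled out after its values were seen, mimic libraries read 15.5 to 16.4 TPM and control libraries 14.3 to 15.4 TPM, without overlap (log2 difference 0.10, limma adjusted p = 0.699). P4HA2 overlaps PDLIM4 on the opposite strand, which averaged 39.3 TPM with the mimic and 41.6 TPM with the control. The histone demethylase KDM3A, an HIF target, averaged 10.9 ± 1.05 TPM with the mimic and 9.88 ± 0.272 TPM with the control (SD, n = 3 each), with overlapping groups. The mitophagy receptors BNIP3 and BNIP3L had log2 differences of -0.05 and 0.089, and NDRG1, a stress-induced gene, 0.05. CA9, a carbonic anhydrase often used as a marker of hypoxic tissue, read 0.153, 0.35 and 0.165 TPM in mimic libraries, against 0.15, 0.229 and 0 TPM in control libraries. At an estimated 0 to 5.2 reads per library, no difference could be detected for it.

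**Figure D4:**
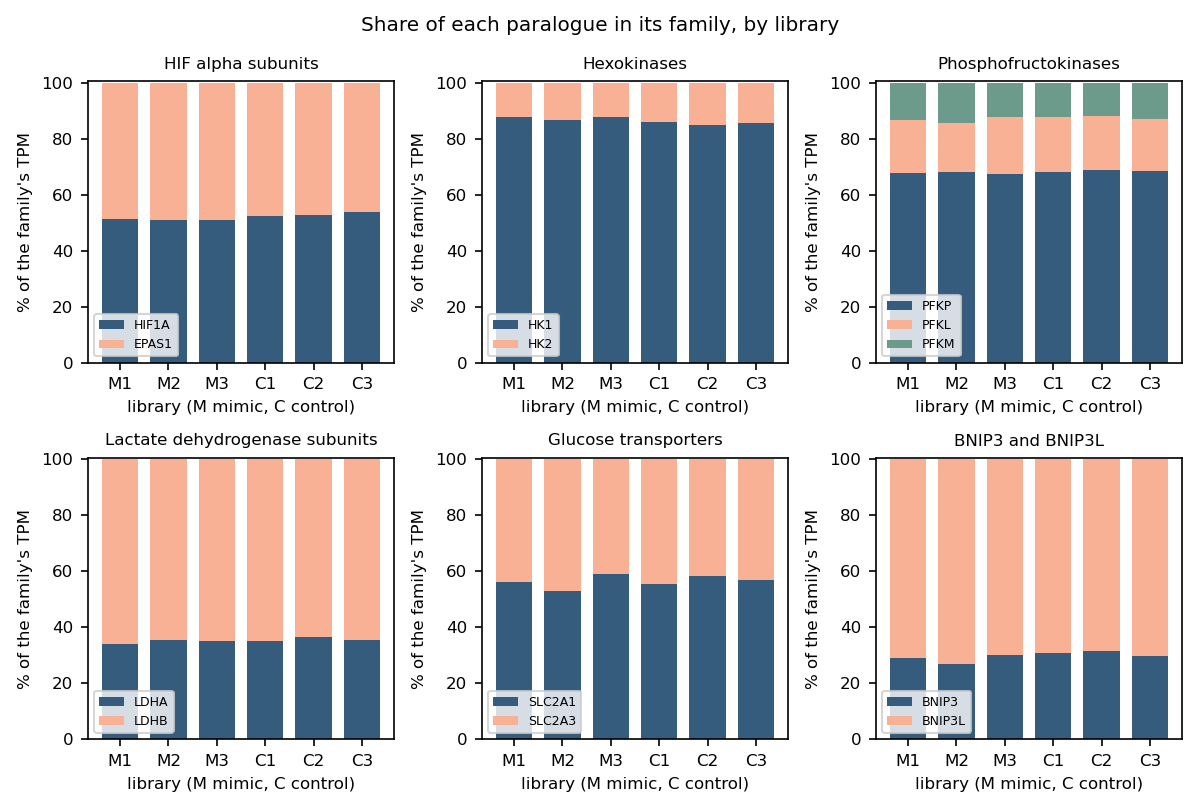
Stacked bars give, for each library, the percentage of a family's summed TPM held by each paralogue, with mimic libraries (M1 to M3) left of control libraries (C1 to C3). HK2 holds 12.1% to 13.4% of hexokinase TPM in mimic libraries and 13.9% to 15.1% in control libraries, and EPAS1 holds 48.5% to 49.1% of HIF alpha TPM in mimic libraries and 46% to 47.5% in control libraries.

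Paralogue shares moved by small amounts. Beside the HIF alpha subunits and the hexokinases, PFKP held 67.7% ± 0.27 of phosphofructokinase TPM with the mimic and 68.6% ± 0.35 with the control (SD, n = 3 each), without overlap. LDHB held 65.2% ± 0.699 of the LDHA and LDHB sum with the mimic and 64.3% ± 0.805 with the control (SD, n = 3 each), with overlap. ALDOA held 98.3% of aldolase TPM in both groups, and ENO1 at least 99% of enolase TPM in every library. Shares overlapped between the groups in these 2 families and in the others compared. Those were SLC2A1 with SLC2A3, PFKFB3 with PFKFB4, EGLN1 with EGLN3, BNIP3 with BNIP3L, and P4HA1 with P4HA2. The shares of EPAS1 and HK2 restate the TPM values given above and are not separate evidence.

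Seed matches were found in 12 of the 38 tested genes (31.6%), against 22.8% of the 11858 tested genes whose 3′ UTR could be searched. CITED2, EPAS1 and PGK1 held an 8mer, at log2 differences of 0.32, 0.20 and 0.057, all above 0. Over the 376 tested genes with an 8mer, the median difference was -0.011 and the 5th to 95th percentiles -0.20 to 0.14, so CITED2 and EPAS1 lay above that range. The 9152 searched genes without a match had a similar median of -0.019 and the same percentiles at -0.25 to 0.15. CITED2 and EPAS1 lay above this range as well, and what part the 8mer had in their position was not tested. The 6 genes with a 7mer-m8 site as their strongest match, HK2, PDK1, LDHA, NDRG1, BNIP3L and P4HA2, ran from -0.23 for HK2 to 0.10 for P4HA2. HK2 lay within the 5th to 95th percentiles of the 1198 tested genes of that class, -0.25 to 0.16. ARNT, EGLN1 and VHL held a 7mer-A1 site at -0.023, 0.057 and -0.035. The 26 genes without a match had a median of 0.0071 and ran from -0.16 to 0.19. All 3 genes with an unadjusted p under 0.05 held a 7mer or 8mer, and 2 of them were higher with the mimic. The share with a site among all tested genes under that limit was not counted, so this count has no background beside it. A link between site and difference was not tested. A match is a description of the sequence and not a measured binding site.

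**Figure D5:**
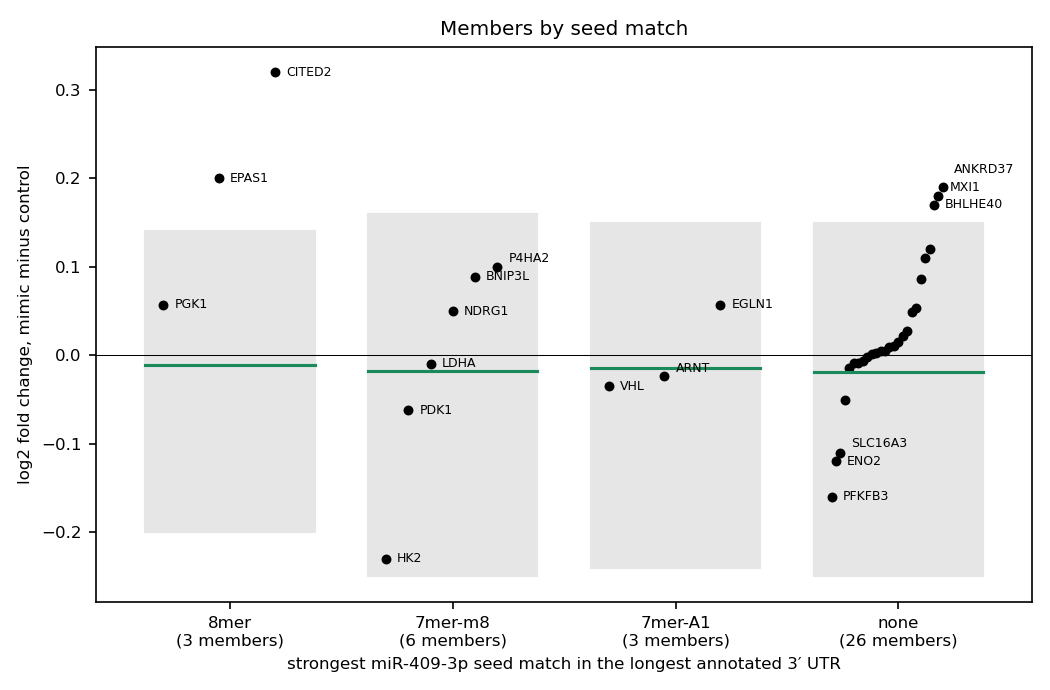
Log2 differences, mimic minus control, of the 38 tested genes by the strongest miR-409-3p seed match in their 3′ UTR. Grey boxes span the 5th to 95th percentiles and green lines the medians of all tested genes in the class. CITED2 and EPAS1 lie above the 8mer box, and the other genes with a site lie within theirs.

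HIF binds a core motif of ACGTG or GCGTG, and its letters were counted on both strands of RefSeq promoter windows of 300 bases spanning annotated starts (GRCh38.p14). For 36 of the 40 genes the table held 68 windows. ACGTG occurred in 38.2% of these windows and in 21.4% of all 35116 windows, and GCGTG in 41.2% of them and 36.5% of all. The full set includes windows of genes that were not tested here, and genes with several windows count more than once. The shares are thus not matched for expression, and whether they differ was not tested. Windows of LDHA and HK2 are shown, since both are textbook HIF targets of glycolysis, with ACGTG or its complement in capitals. CACGTG reads the same on both strands and so counts as 2 overlapping matches.
LDHA, chr11:18394313-18394612, plus strand: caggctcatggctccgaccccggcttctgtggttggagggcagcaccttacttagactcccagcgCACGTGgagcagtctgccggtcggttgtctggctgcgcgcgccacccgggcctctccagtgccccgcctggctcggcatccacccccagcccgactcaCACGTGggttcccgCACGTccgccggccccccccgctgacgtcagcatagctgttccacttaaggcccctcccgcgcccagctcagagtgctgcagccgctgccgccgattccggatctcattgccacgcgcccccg
HK2, chr2:74834920-74835219, plus strand: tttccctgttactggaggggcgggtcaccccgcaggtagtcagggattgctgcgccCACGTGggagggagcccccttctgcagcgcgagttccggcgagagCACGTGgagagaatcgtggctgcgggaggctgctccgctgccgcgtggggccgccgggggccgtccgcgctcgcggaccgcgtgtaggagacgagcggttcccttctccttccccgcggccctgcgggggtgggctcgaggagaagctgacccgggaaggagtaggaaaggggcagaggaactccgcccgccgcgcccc
Each gene has 2 windows, and the one with more matches is shown, 5 of ACGTG for LDHA and 4 for HK2. The other LDHA window held no ACGTG. LDHA and HK2 had the highest counts of the group in 1 window, with BHLHE40 equal to HK2. In the group 26 of the 68 windows held ACGTG, and no window of SLC2A1, ENO1 or PKM did. LDHA had a log2 difference of -0.0097 and HK2 of -0.23, and the motif is a description of these letters only.

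A second list of 76 genes held further HIF regulators, HIF targets and genes of glucose metabolism, of which 64 were tested. None passed in either direction (limma adjusted p), and 10 had an unadjusted p under 0.05, 2 higher (3.12%, against 3.05% of all tested genes) and 8 lower (12.5%, against 7.64%). The median log2 difference was -0.012, and for the 29 tested HIF targets among them it was -0.022, with 10 above 0 and 19 below. ANGPTL4, a secreted lipase inhibitor induced by hypoxia and by fatty acids, read 7.1, 5.09 and 7.54 TPM in mimic libraries, against 10.9, 11.4 and 9.75 TPM in control libraries. Every mimic library was lower, with a log2 difference of -0.64 (SE 0.13, limma adjusted p = 0.0893). With protein-coding genes alone tested its limma adjusted p was 0.0267.

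The ubiquitin ligases SIAH1 and SIAH2, which target prolyl hydroxylases for destruction, differed in opposite directions. SIAH1 averaged 12.2 ± 0.797 TPM with the mimic and 9.58 ± 0.374 TPM with the control (SD, n = 3 each), a log2 difference of 0.31 (limma adjusted p = 0.145). SIAH2 averaged 22.6 ± 1.61 TPM with the mimic and 28.1 ± 2.26 TPM with the control (SD, n = 3 each), a log2 difference of -0.30 (limma adjusted p = 0.18). Neither overlapped between the groups, and neither passed the threshold.

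TIGAR, a phosphatase that diverts sugar from glycolysis, averaged 21.9 ± 1.02 TPM with the mimic and 26.2 ± 1.32 TPM with the control (SD, n = 3 each), a log2 difference of -0.25 (limma adjusted p = 0.186). Of the enzymes that set pyruvate dehydrogenase activity, the phosphatase PDP2 had a log2 difference of -0.35 and the kinase PDK4 of -0.23, with limma adjusted p of 0.188 and 0.462. The other phosphatase PDP1 and the kinases PDK2 and PDK3 had log2 differences of 0.13, 0.18 and 0.056, with limma adjusted p of 0.679, 0.522 and 0.958. Among further HIF targets, the vasoconstrictor endothelin EDN1 had a log2 difference of -0.14, CCNG2 of -0.21, ANKZF1 of -0.20 and ZNF395 of 0.18, with limma adjusted p of 0.256 to 0.46.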

How the data were processed

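For every library the authors deposited a table of TPM values by Ensembl gene ID, per the file headers. The submitters' processing notes list hg38 and GRCh38.p13. Aligner, counter and strand use: not given in the sources used here. Per the labels, mRNA was enriched from 500 ng of RNA, amplified by 13 PCR cycles and read as single 75-cycle reads, and 4 technical replicates were pooled per RNA sample.

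The 40 genes and the second list were chosen with earlier results of these data known. Symbols were found for 45102 of 45372 IDs. TPM times exon length (GENCODE 29) gave whole reads, within 0.02 reads, for 74.7% to 75.7% of low genes, from which depth was estimated; reads carry no molecular identifiers, so PCR copies count. TPM was tested as log2(TPM + 1), which understates changes of low genes, in limma 3.58.1 (R 4.3.3) with a trended prior and the group as the only term. Genes reaching 1 TPM in 3 or more of 6 libraries entered, with Benjamini-Hochberg adjustment and a threshold of 0.05. 3′ UTRs of at least 30 bases were searched for seed sites. Of the 40 genes, values per library are printed for those with an unadjusted p under 0.05, the HIF subunits, EGLN3, PFKFB3, SLC2A1, LDHA and the 5 largest differences each way; of the second list, genes with an unadjusted p under 0.05 are named. Others were chosen after their values were seen. Alternatives changed the pseudocount, filter, scaling, prior, replicate block, libraries, gene set and GC content. Python 3.11.15, numpy 2.4.6, pandas 2.3.3 and matplotlib 3.10.9 were used.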

Additional observations from a re-analysis of the deposited data

How the results depend on the processing

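Counts of all genes called at an adjusted p under 0.05 (18 higher and 41 lower with the mimic) depended on the settings. They were 6 and 5 without a filter, 36 and 79 with a filter at 5 TPM, 33 and 54 with median-of-ratios scaling, 34 and 42 with quantile scaling, and 10 and 10 with an untrended prior. They were 58 and 141 with protein-coding genes only and 142 and 266 with a GC correction in addition, both chosen after seeing the data. Leaving out single libraries gave 6 to 22 higher and 6 to 27 lower. With the replicate number as a block they were 9 and 5. Deviations of same-numbered libraries correlated at 0.0309, -0.0872 and -0.112. These low values do not show whether the numbers pair the samples. Base composition differences within a group can also enter the deviations, and their part was not tested. Of the hypoxia and glycolysis genes, 0 were called in 13 alternatives, and 1 higher (CITED2) in each of the 2 with protein-coding genes only. Of the second list, protein-coding genes only gave 1 lower (ANGPTL4), and the GC correction 1 higher (SIAH1) and 2 lower (ANGPTL4 and TIGAR). Of 567 log2 differences of the group over 15 alternatives, 508 kept their sign, and the 19 genes that changed sign all had main values of at most 0.053 in size. Quantile scaling gave ARNT 0.016, PFKP -0.011, PFKFB4 0.0093, ALDOA -0.01 and ENO1 -0.0042. Median-of-ratios scaling gave HK1 0.0077, PFKFB4 0.0077, GAPDH 0.013, PGAM1 0.015, PKM 0.02 and LDHA 0.012. The GC correction gave HK1 0.0087, PFKFB4 0.015, GAPDH 0.016, PGAM1 0.016, PKM 0.023 and LDHA 0.008. Leaving out single libraries gave these ranges: ARNT -0.071 to 0.013, VHL -0.11 to 0.013, SLC2A1 -0.047 to 0.028, SLC2A3 -0.0073 to 0.10, HK1 -0.062 to 0.031, GPI -0.019 to 0.043, PFKL -0.081 to 0.13, PFKP -0.056 to 0.05, PFKFB4 -0.085 to 0.068, ALDOA -0.092 to 0.10, ALDOC -0.083 to 0.11, TPI1 -0.071 to 0.066, GAPDH -0.061 to 0.038, PGAM1 -0.032 to 0.021, ENO1 -0.012 to 0.06, PKM -0.045 to 0.021, LDHA -0.057 to 0.024, NDRG1 -0.011 to 0.10 and P4HA1 -0.017 to 0.041. The causes of these shifts were not tested. At this depth EGLN3 and CA9 were too low to compare.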
